A study of Homo sapiens with 4 samples.

Results

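The ribosomal protein genes of the cytoplasmic ribosome were taken by name from the deposited gene counts. A name was kept when it was RPL or RPS followed by digits with at most 1 trailing letter A, X or L, or was RPLP0, RPLP1, RPLP2 or RPSA. The rule found 83 genes of 40877 names that name 1 gene. They comprise 77 core subunit genes (46 of the large subunit and 31 of the small), 4 paralogues (RPL3L, RPL10L, RPL39L and RPS27L) and 2 older symbols of pseudogenes. In all, 81 members reached 100 counts in at least 1 library, and all 77 core genes did so in every library. The pseudogene symbols had at most 14 counts in a library and are not described further.

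Human cancer cell lines were profiled by single-cell RNA sequencing with a 10x Genomics 5′ kit, which counts polyadenylated transcripts near their start. H1299 is a non-small cell lung cancer line and HCT116 a colorectal cancer line, both used at passage 5 to 10. The control cells of each line received the solvent DMSO. The treated cells (DAC+SB) received decitabine (DAC, an inhibitor of DNA methyltransferases) at 500 nM for 72 h together with SB939, an inhibitor of histone deacetylases, at 500 nM for 18 h, in medium renewed every 24 h. Each combination of line and treatment was 1 library. Each line was compared on its own, with no replicate to give a spread, so no test was made and no p-value is given. A model that takes the lines as a pair of blocks with 1 shared treatment effect was not fitted. Where 4 values follow each other, their order is control H1299, treated H1299, control HCT116 and treated HCT116. Intervals are 95% intervals that cover counting error only, not the variation between cells, cultures or library preparations.

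Ribosomal proteins assemble with ribosomal RNA into the large subunit, which forms peptide bonds, and the small subunit, which reads the messenger RNA. Their messenger RNAs are among the most abundant in dividing cells, and most begin with a C followed by a run of C and T (C and U in the RNA), the terminal oligopyrimidine (TOP) tract, through which growth signals control their translation. A few core genes have paralogues that are known for tissue-restricted expression, such as RPL3L in striated muscle and RPL10L and RPL39L in testis.

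The TOP tract is shown first because it is the sequence feature that most of the measured genes share at the position a 5′ kit counts. RefSeq start sites (GRCh38.p14) were found by symbol for 64 members, 62 of them core genes. Each line gives 10 bases before an annotated start and 20 bases from it, 5′ to 3′ on the gene's strand, and capitals mark the start base and the unbroken run of C and T that begins there; where the start base is neither, it alone is in capitals. RPS12 and RPLP1 are the most highly counted core genes of H1299 and HCT116. RPL28 and RPL21 had the highest and the lowest treated to control ratio among core genes in HCT116 (joined names added), and RPL18 is the gene whose naming differed between libraries. RPL10 and RPS27 are each shown beside their paralogue.
RPS12, chr6:132814559-132814588, plus strand: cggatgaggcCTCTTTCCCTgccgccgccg
RPLP1, chr15:69452808-69452837, plus strand: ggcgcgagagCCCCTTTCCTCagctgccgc
RPL28, chr19:55385922-55385951, plus strand: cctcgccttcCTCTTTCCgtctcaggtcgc
RPL21, chr13:27251548-27251577, plus strand: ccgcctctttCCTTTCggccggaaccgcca
RPL18, chr19:48619159-48619188, minus strand: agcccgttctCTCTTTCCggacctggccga
RPL10, chrX:154398367-154398396, plus strand: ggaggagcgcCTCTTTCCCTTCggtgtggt
RPL10L, chr14:46651762-46651791, minus strand: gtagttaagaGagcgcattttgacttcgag
RPS27, chr1:153990752-153990781, plus strand: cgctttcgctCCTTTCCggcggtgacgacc
RPS27L, chr15:63157458-63157487, minus strand: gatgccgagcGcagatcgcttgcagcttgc

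A tract, searched on the gene's strand as a C at an annotated start followed by at least 4 further C or T, was found for 46 of the 62 core genes (74.2%) and for 5.14% of the 27305 genes in the table. When the C could lie up to 3 bases from the annotated start, 52 of 62 core genes (83.9%) and 16.0% of all genes had one. In the windows above, RPL10 and RPS27 have the tract and their paralogues RPL10L and RPS27L have none at the annotated start. RPL10 has 3 annotated starts, and only the 1 shown has the tract. Among mitochondrial ribosomal protein genes, which serve the ribosome inside mitochondria, 6 of 69 (8.70%) had the tract at the start. A match is a description of these letters only. The treated to control ratios of core genes with and without the tract overlapped: the median log2 ratio was 0.02 in H1299 and -0.06 in HCT116 for the 46 genes with it, against 0.00 and -0.18 for the 16 without.

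The 4 libraries held 15289 cells. Total counts were 64524196, 62428673, 62639099 and 38927267 in the order just given. The median count per cell was 17369.5, 15784.5, 16257.5 and 8449, lowest in treated HCT116. Mitochondrially encoded genes took 9.50%, 9.35%, 17.4% and 18.2% of counts, and transposable elements took 0.199%, 3.09%, 0.319% and 5.56%. Between 18 and 30 cell barcodes were shared by each pair of libraries, 131 in all. Summed levels of 8 H1299 markers (VIM, ZEB1, CDH2, AXL, G0S2, SPARC, NNMT, PLAU) were 3105 and 1249 CPM (counts scaled to a library total of 1000000) in H1299 and 124 and 290 CPM in HCT116, DMSO first. CDH2, G0S2 and NNMT were at 0 in control HCT116. The HCT116 markers given here, 9 in all (EPCAM, CDH1, CLDN7, ELF3, LGALS4, GPA33, VIL1, CDX2, KRT20), summed to 0.294 and 12.03 CPM in H1299 and to 138 and 88.2 CPM in HCT116. CDH1, GPA33 and KRT20 were at 0 in control H1299, KRT20 was at 0 in treated H1299, and GPA33 was at 0 in control HCT116.

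Naming matters for these genes. Where genes overlap, the deposited table joins their names, and 58 joined names contain a member, 44 of them together with a small nucleolar RNA, a class often hosted in introns of these genes. Values under joined names were therefore added to the member wherever stated, and features that name the member alone are called single names. For 7 core genes, RPL13A, RPL17, RPL18, RPL26, RPL36A, RPS10 and RPS13, most counts stood under joined names in at least 1 library. RPL18 had 170467 single-name counts in control H1299 but 11527, 10135 and 4680 in the other libraries, which alone would read as a log2 ratio of -3.84 in H1299. With the joined name of RPL18 and AC022154.7 added, the 4 libraries held 171788, 186540, 173104 and 115352 counts, and the log2 ratio of DAC+SB over DMSO was 0.17 in H1299 and 0.10 in HCT116. RPS10, a small subunit protein, showed the opposite case. Its single-name counts were 543, 997, 668 and 1165, whereas 282739, 320624, 153585 and 112146 counts remained once its read-through name with NUDT3 was added, with log2 ratios of 0.23 in both lines in place of 0.92 and 1.49. The ribosomal protein pseudogenes (292 names), whose reads can be confused with those of the members, held 821, 830, 687 and 568 CPM, between 0.278% and 0.337% of the members' counts. How reads that match both were counted was not given, so these values do not measure the confusion.

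Together, the members made up about the same share of counts with and without treatment. With joined names added, they took 26.0% of counts in control and 26.5% in treated H1299, and 22.5% in control and 21.95% in treated HCT116. The log2 ratio of the share was 0.028 in H1299 (interval 0.027 to 0.029) and -0.035 in HCT116 (interval -0.036 to -0.034). These intervals treat the pooled counts as independent, although the share varied among cells. On single names alone the shares were 24.4%, 24.6%, 20.9% and 20.4%, with log2 ratios of 0.015 and -0.034. The direction in HCT116 was not stable: with transposable element counts taken out of the total the single-name log2 ratio was 0.044. As a mean over cells it kept its sign, at -0.11. By value, the control libraries of the lines differed more than control and treated libraries of 1 line. The single-name share was lower in HCT116 than in H1299 by a log2 ratio of -0.22, which moved to -0.09 when mitochondrially encoded counts were taken out of the totals. The number of ribosomal protein counts in a median cell, joined names added, was 4482, 4209, 3647 and 1836. The last value goes with the low depth per cell of that library; less RNA per cell and shallower capture cannot be told apart.

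The share varied among the cells of each library. After each cell was thinned to 3300 counts, which left out 402 treated HCT116 cells and none elsewhere, the median share with joined names added was 26.2% in control H1299 (lower quartile 23.4%) and 26.6% in treated H1299 (lower quartile 23.3%). It was 22.9% in control HCT116 (lower quartile 20.1%) and 21.7% in treated HCT116 (lower quartile 17.6%). The spread over cells was wider with treatment in both lines, with an SD of 4.28 against 4.98 percentage points in H1299 and 4.27 against 5.37 in HCT116. Cells are not replicates, and these spreads describe single libraries. Mitochondrial counts exceeded 25% in 91 of 3578, 88 of 3726, 364 of 3658 and 1086 of 4327 cells, and their part in the wider spread was not tested. Across treated HCT116 cells, the ribosomal protein share, joined names added, was also taken of counts other than mitochondrial ones. Its Spearman rho with the cell's mitochondrial share was -0.27 (3925 cells of 1 library, thinned counts). The same rho was -0.17 in control H1299, -0.02 in treated H1299 and -0.14 in control HCT116.

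**Figure D1:**
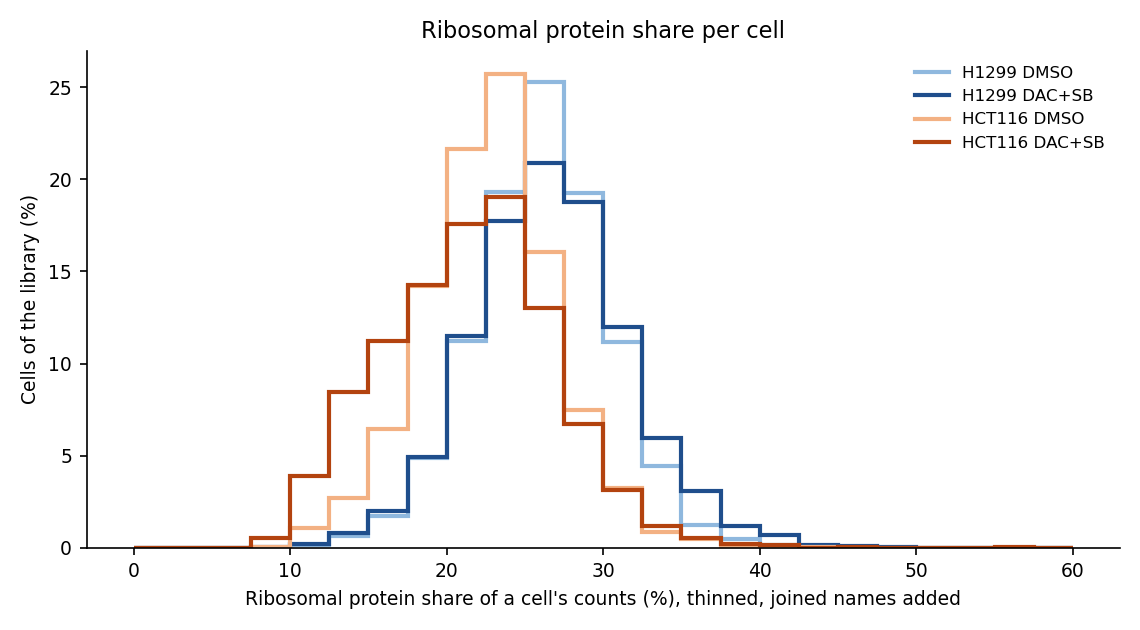
Distribution over cells of the ribosomal protein share of counts, joined names added, after thinning to 3300 counts; the x axis is the share in percent and the y axis the percent of a library's cells, with 1 line per library. The medians lie at 26.2% and 26.6% in control and treated H1299 and at 22.9% and 21.7% in HCT116, where the treated curve extends furthest to low shares.

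Core genes differed in level among themselves by more than an order of magnitude. Levels here are the deposited gene counts scaled to CPM. They are not divided by gene length, as a 5′ kit reads each transcript near its start. The part of reads shared with pseudogenes in the differences between genes was not tested. With joined names added, RPS12, a small subunit protein, was highest in H1299, at 13682 CPM with DMSO and 14495 CPM with DAC+SB. RPLP1, which with RPLP2 forms the acidic stalk that recruits translation factors, was highest in HCT116, at 11703 CPM with DMSO and 11371 CPM with DAC+SB. RPS26, at the mRNA exit channel, was the lowest core gene in 3 libraries, with 515 CPM in control H1299, 331 CPM in control HCT116 and 289 CPM in treated HCT116, and RPL27A was lowest in treated H1299 at 504 CPM. The top 10 core genes held 31.0%, 31.8%, 28.98% and 30.7% of core counts.

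**Figure D2:**
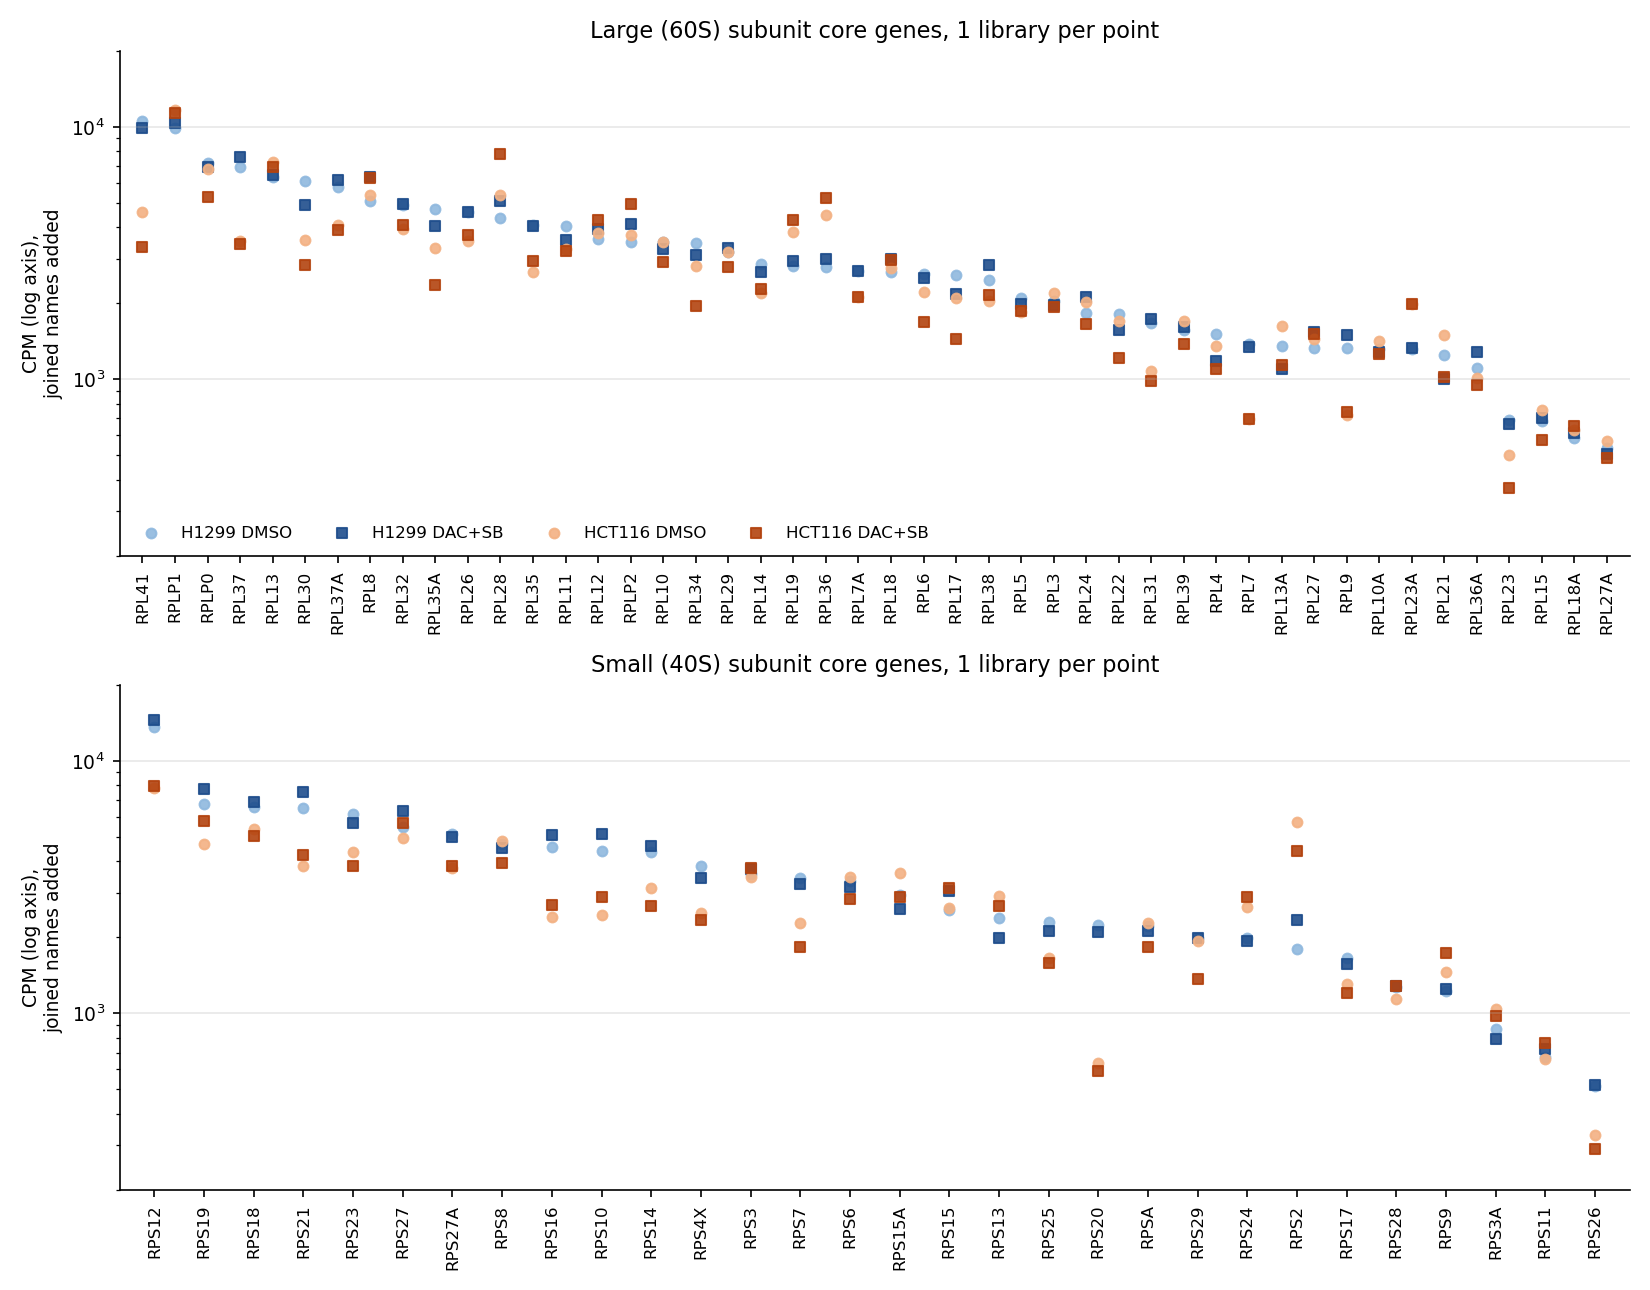
Level of each core gene in the 4 libraries, joined names added; the y axis is CPM on a log axis, genes are ordered by their level in control H1299, and each point is 1 library; 1 small subunit gene is not shown. RPS12 and RPLP1 lie at or near the top in all 4 libraries, and RPS2, RPS20 and RPL41 are among the genes whose HCT116 points lie far from their H1299 points.

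In H1299, the core genes hardly moved as a group with DAC+SB. With joined names added, their median log2 ratio was 0.01 (SD over genes 0.17), 41 genes lay above 0 and 36 below, and none of 77 differed by 1.5-fold. Over all 14895 genes compared in the same way, 24.9% were higher and 20.9% lower by at least 1.5-fold, and the median was -0.07. Of these genes, 46.2% lay above 0 and 53.8% below. Among the 935 genes with at least 10000 counts in a library, members included, 71.4% lay within 1.5-fold, against 100% of core genes. On single names, 1 member was higher by at least 2-fold (RPL3L; 18.3% of 14610 genes were) and 1 was lower (RPL18, described above; 7.34% of genes were). At 1.5-fold, 2 members were higher (RPL3L and RPS10) and 2 lower (RPL18 and RPL39L) on single names (24.9% and 21.3% of genes were). RPL3L had under 100 counts in control H1299 and could be called only higher.

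In HCT116, the core genes spread more widely around a median of -0.06 (SD 0.26), with 31 above 0 and 46 below. The share of core genes below 0 was 59.7%, beside 59.2% of all 13831 genes. The sign of the core median rests on the total. Without transposable element counts in it, every HCT116 log2 ratio is higher by 0.078 and the core median is 0.01. In that setting 39 core genes lie above 0 and 38 below, and 2 core genes, RPL28 (0.62) among them, pass 1.5-fold. In H1299 the same choice adds 0.042 and gives 47 above and 30 below. The share of all genes above 0 or past 1.5-fold was not counted in that setting, so no trait particular to core genes is read from these numbers. The single-name median of all genes was then -0.03 in H1299 and -0.15 in HCT116. With all counts in the total, none of 77 differed by 1.5-fold with joined names added, whereas 22.7% of 13831 genes were higher and 34.8% lower by that much, and the median of all genes was -0.23. Of the 773 genes with at least 10000 counts, 56.7% lay within 1.5-fold. On single names, 4 members were higher by at least 2-fold, RPL3L, RPL10L, RPL39L and RPS10 (16.2% of 13539 genes were), and 0 were lower (20% of genes were). At 1.5-fold, RPS27L joined these as the fifth higher member (22.7% of genes were), and 1 was lower on single names (RPL13A; 35.2% of genes were). Relative to the median of all genes tested, the single-name median of the members was higher by 0.17 in HCT116 and by 0.09 in H1299.

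Among large subunit genes, 25 of 46 lay above 0 in H1299 and 17 of 46 in HCT116, or 28 and 24 without transposable element counts in the totals. With these counts in the totals, 46.2% of all genes lay above 0 in H1299 and 40.8% in HCT116. Without them the share of all genes was not counted. RPL28 had 4358, 5102, 5348 and 7786 CPM. It was higher with treatment in both lines, with log2 ratios of 0.23 in H1299 and 0.54 in HCT116, the highest core value there. RPL8, which lies near the peptidyl transferase centre, had 5078, 6348, 5373 and 6294 CPM. Its log2 ratios were 0.32 and 0.23, the largest of the large subunit in H1299. At the other end, RPL21 had 1244, 1000, 1493 and 1021 CPM, the lowest core ratio in HCT116 at -0.55 and -0.31 in H1299. RPL4, a protein of the peptide exit tunnel, had 1513, 1184, 1354 and 1098 CPM, and its log2 ratios were -0.35 in H1299, the lowest core value there, and -0.30 in HCT116. RPL30, RPL13A, RPL17, RPL22, RPL34 and RPL35A were also lower in both lines, with log2 ratios from -0.16 to -0.32 in H1299 and from -0.33 to -0.54 in HCT116. RPL5 and RPL11, which join the large subunit with the 5S ribosomal RNA and can bind MDM2, had log2 ratios of -0.08 and -0.18 in H1299 and 0.01 and -0.03 in HCT116.

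The stalk genes did not move together in HCT116. RPLP0, the stalk's anchor on the large subunit, had 7154 and 6943 CPM in H1299 and 6781 and 5259 CPM in HCT116, DMSO first. RPLP1 had 9929 and 10336 CPM in H1299 and 11703 and 11371 CPM in HCT116. RPLP2 had 3501 and 4133 CPM in H1299 and 3741 and 4924 CPM in HCT116. The log2 ratios in HCT116 were thus -0.37 for RPLP0, -0.04 for RPLP1 and 0.40 for RPLP2, and in H1299 they were -0.04, 0.06 and 0.24.

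Among small subunit genes, 16 of 31 lay above 0 in H1299 and 14 of 31 in HCT116, or 19 and 15 without transposable element counts in the totals. With these counts in the totals, 46.2% of all genes lay above 0 in H1299 and 40.8% in HCT116. Without them the share of all genes was not counted. RPS2, which lies near the mRNA entry channel, was the clearest case of opposite signs: it had 1794 CPM in control H1299 and 2348 CPM in treated H1299, a log2 ratio of 0.39, but 5740 CPM in control HCT116 and 4408 CPM in treated HCT116, a log2 ratio of -0.38. RPS29 was level in H1299 (1985 CPM in both libraries) and lower in HCT116 with treatment, at 1940 CPM with DMSO and 1366 CPM with DAC+SB, a log2 ratio of -0.51. RPS15 and RPS19 were higher in both lines, with log2 ratios of 0.25 and 0.19 in H1299 and 0.27 and 0.29 in HCT116. RPS6, the substrate of the S6 kinases, had log2 ratios of -0.08 and -0.30, and RPSA, also known as the laminin receptor, of -0.06 and -0.32. RPS27A, which is made as a fusion with ubiquitin, had -0.04 and 0.03, and RPS4X had -0.16 and -0.08.

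The direction of each core gene's ratio was compared between the lines. The same comparison was not made over all genes, so no trait particular to core genes is read from it. With joined names added, 26 genes were above 0 in both lines, 31 below 0 in both, 15 above 0 in H1299 and below in HCT116, and 5 the reverse. Without transposable element counts in the totals these numbers were 35, 26, 12 and 4. Across the 77 genes Pearson's r was 0.65 and Spearman's rho 0.65, given as a description, since all values of a line share the same pair of libraries and their totals. On single names r was 0.39 and rho 0.60. As the H1299 minus the HCT116 log2 ratio, the largest positive differences between the lines among core genes were 0.77 for RPS2, 0.51 for RPS29 and RPL24 and 0.44 for RPL15, and the largest negative one was -0.31 for RPL28.

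**Figure D3:**
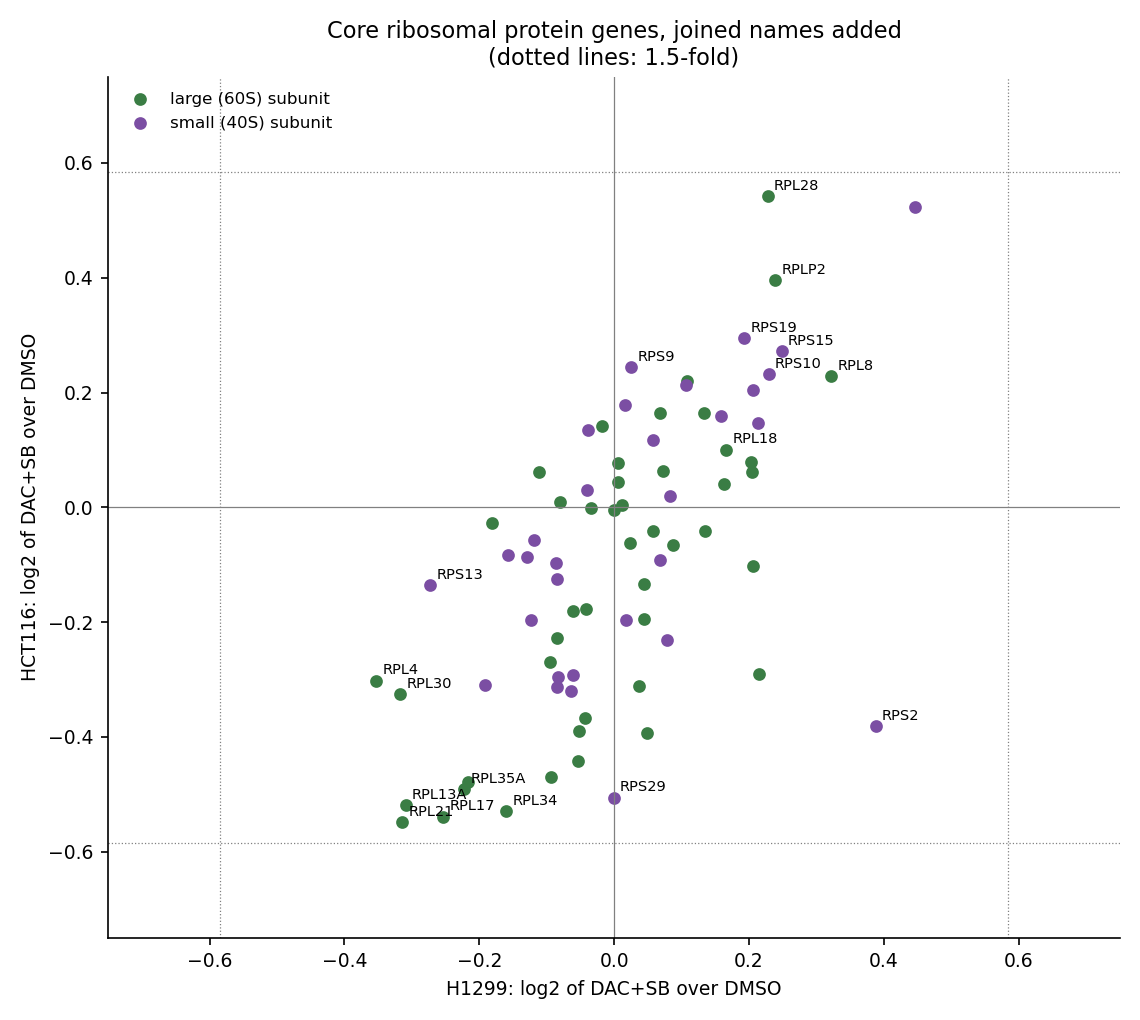
Log2 ratio of DAC+SB over DMSO for the 77 core genes in H1299 (x axis) and HCT116 (y axis), joined names added, coloured by subunit; each point is 1 gene from 1 pair of libraries per line, and dotted lines mark 1.5-fold. All points lie inside the dotted lines, RPL28 lies at the upper right, RPL21 at the lower left, and RPS2 at the lower right with 0.39 and -0.38.

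The 3 paralogues known for tissue-restricted expression were the members furthest from the core pattern. RPL3L (ENSG00000140986.7, chr16:1943974-1957606, minus strand) had 21, 1239, 15 and 1255 counts. Its level was thus near 0 in both control libraries, at 0.325 and 0.239 CPM, and reached 19.8 and 32.2 CPM with treatment. The ratio was 61.0-fold in H1299 (log2 5.93, interval 5.31 to 6.63) and 135-fold in HCT116 (log2 7.07, interval 6.35 to 7.91). Its parent gene RPL3, at the peptidyl transferase centre, had 2046 and 1961 CPM in H1299 and 2193 and 1934 CPM in HCT116, so RPL3L stayed at a small fraction of RPL3 in every library. After thinning, RPL3L was counted in 0.168% of control H1299 cells and 6.90% of treated H1299 cells, and in 0.0547% and 8.76% of HCT116 cells. Without thinning the shares of cells were 0.503%, 21.7%, 0.328% and 19.3%.

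RPL10L (ENSG00000165496.4, chr14:46651010-46651821, minus strand), an intronless copy of RPL10, was counted mainly in treated HCT116 cells. It had 0, 63, 0 and 1696 counts. Set against a floor of 3 counts per library, it was at least 910-fold higher in treated than in control HCT116 (log2 of at least 9.83), a bound that would not hold if RPL10L had counts in a feature left off the list for that library, as numbered features are listed from 10 counts on. The 63 counts in treated H1299 lie below the 100 counts required for a comparison. RPL10 itself had 3492, 3270, 3508 and 2909 CPM, against 1.01 CPM of RPL10L in treated H1299 and 43.6 CPM in treated HCT116. In thinned cells, RPL10L was seen in 8 of 3726 treated H1299 cells (0.215%) and 504 of 3925 treated HCT116 cells (12.8%, exact interval 11.8% to 13.9%). For the 0 of 3578 and 0 of 3658 control cells, the exact intervals reach up to 0.103% and 0.101% of cells with a count at this depth. This is no limit on cells that express the gene. Without thinning, RPL10L was seen in 1.53% and 26.3% of treated cells.

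RPL39L (ENSG00000163923.9, chr3:187120948-187180908, minus strand) had opposite directions in the lines. It had 16405 counts in control H1299 and 8403 in treated H1299, but 0 in control HCT116 and 1223 in treated HCT116. In H1299 the level was thus 254 CPM with DMSO and 135 CPM with DAC+SB (log2 ratio -0.92, interval -0.96 to -0.88), and in HCT116 it was at least 656-fold higher with treatment, at 31.4 CPM, under the same condition as the bound for RPL10L. Even so, treated HCT116 stayed below treated H1299. Its parent gene RPL39, a protein of the exit tunnel, had 1573 and 1614 CPM in H1299 and 1705 and 1374 CPM in HCT116. RPL39L was counted in 52.7% of thinned control H1299 cells, 30.9% of treated H1299 cells, 0 of 3658 control HCT116 cells and 9.07% of treated HCT116 cells, and in 92.7%, 71.6%, 0% and 20.8% of unthinned cells. The 0 of 3658 cells again limits only the share of cells with a count, to 0.101% at the upper end of the exact interval.

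RPS27L (ENSG00000185088.13, chr15:63125872-63158021, minus strand) was present in every library. It had 9639, 13690, 10231 and 9572 counts, which is 149 and 219 CPM in H1299 and 163 and 246 CPM in HCT116, DMSO first. The log2 ratio was 0.55 in H1299 (interval 0.52 to 0.59) and 0.59 in HCT116 (interval 0.55 to 0.63). Its parent gene RPS27 had log2 ratios of 0.21 and 0.20. RPS27L was counted in 35.3% and 46.7% of thinned H1299 cells and in 40.8% and 51.3% of thinned HCT116 cells, with 85.0%, 87.2%, 88.3% and 74.9% unthinned; in HCT116 the unthinned share runs against the CPM and no order is read from it.

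**Figure D4:**
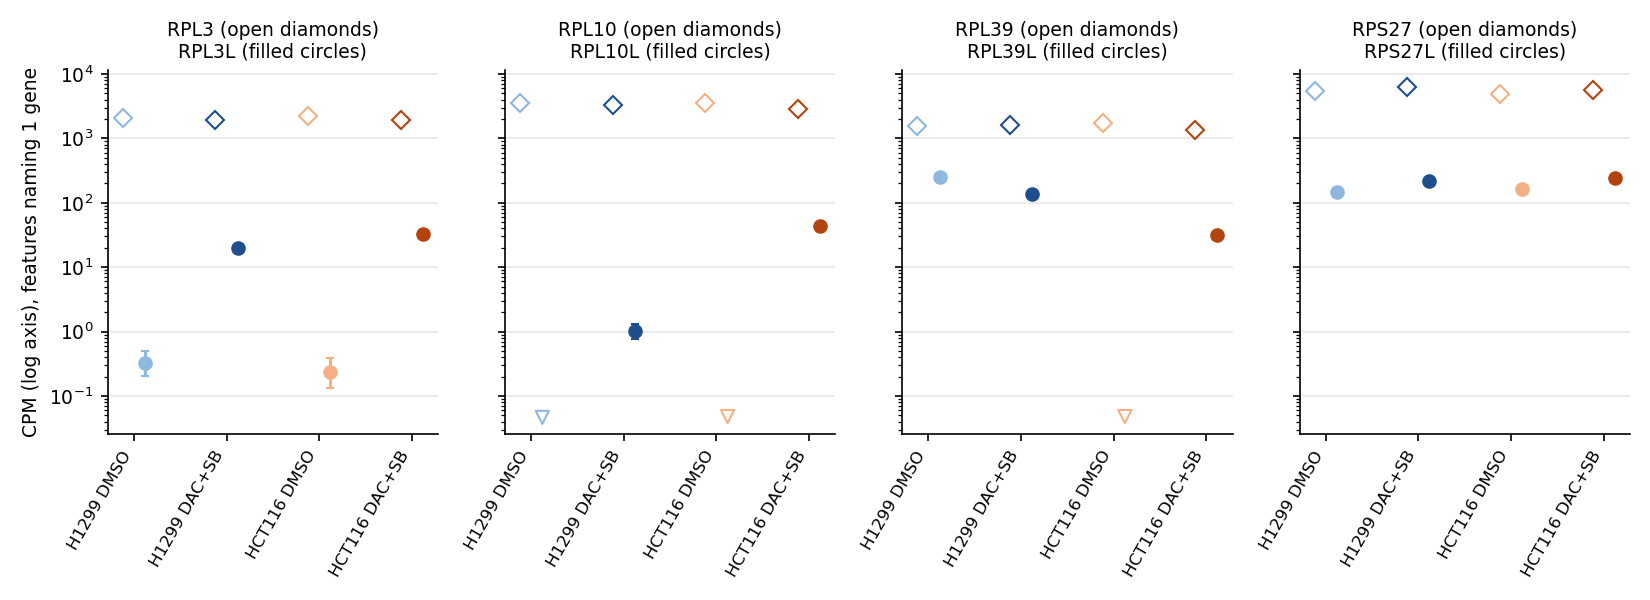
Levels of the 4 paralogues (filled circles) and their parent genes (open diamonds) in each library; the y axis is CPM on a log axis, bars are exact Poisson 95% intervals (smaller than most symbols), and open triangles mark the floor of 3 counts where a gene had 0 counts. RPL3L is at 19.8 and 32.2 CPM in the treated libraries and below 1 CPM in the controls, RPL10L reaches 43.6 CPM in treated HCT116, RPL39L is highest in control H1299 at 254 CPM, and the parent genes lie above 1000 CPM throughout.

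Genes that the naming rule leaves out but that encode ribosomal proteins were described beside the members on single names. FAU, which encodes a small subunit protein fused to a ubiquitin-like one, stood mostly under joined names, with 2542 single-name counts in control H1299 and 85254 with joined names added. With joined names added its log2 ratios were 0.12 for H1299 and 0.33 for HCT116, against 0.23 and 0.19 on single names alone. The paralogue RPL26L1 had 0.53 and 0.65, RPL36AL 0.08 and 0.20, RPL22L1 -0.31 and -0.48, and RPL7L1 -0.30 and -1.54.

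Other gene lists of the translation machinery had lower median ratios than the core ribosomal proteins in both lines, without a test. Beside the counts below 0 that follow, 54.1% of all genes were below 0 in H1299 and 59.4% in HCT116, on single names. Of 77 mitochondrial ribosomal protein genes, 63 were below 0 in H1299 (median -0.46) and 58 in HCT116 (median -0.50), with 11 and 21 lower by at least 2-fold (7.34% and 20% of all genes were) and 0 higher by that much in either line (18.3% and 16.2% of all genes were). MRPL9 was lowest in both on single names, at -1.76 in H1299 and -2.19 in HCT116. It had -1.46 and -1.84 once joined names were added, and MRPS27 (-1.68) and MRPS18B (-2.09) were lowest. In contrast, MRPS31 had 0.40 and 0.74. Of 16 other translation genes known for a TOP tract, 15 were below 0 in H1299 (median -0.29) and 14 in HCT116 (median -0.38). PABPC1, the poly(A)-binding protein, had 1844 and 1172 CPM in H1299 and 1275 and 363 CPM in HCT116, with log2 ratios of -0.65 and -1.81. EEF1D, an elongation factor subunit, went the other way with 0.36 and 0.94. Of 32 ribosome biogenesis genes, 31 were below 0 in H1299 (median -0.68) and 32 in HCT116 (median -0.56), and 6 and 7 were lower by at least 2-fold, beside the same 7.34% and 20% of all genes. UTP20, needed for small subunit assembly, had log2 ratios of -2.77 and -2.71, UBTF, which drives transcription of ribosomal RNA genes, had -1.18 and -2.09, and FBL, the nucleolar methyltransferase fibrillarin, had 0.01 and -0.09. The medians of all genes on single names were -0.07 and -0.23. The members had 88.1% to 90.1% of their counts, by library, in features that carry a number in the deposited table, which are listed from 10 counts on, against 46.1% to 59.9% for all other single names; the part of this in the differences between lists was not tested.

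**Figure D5:**
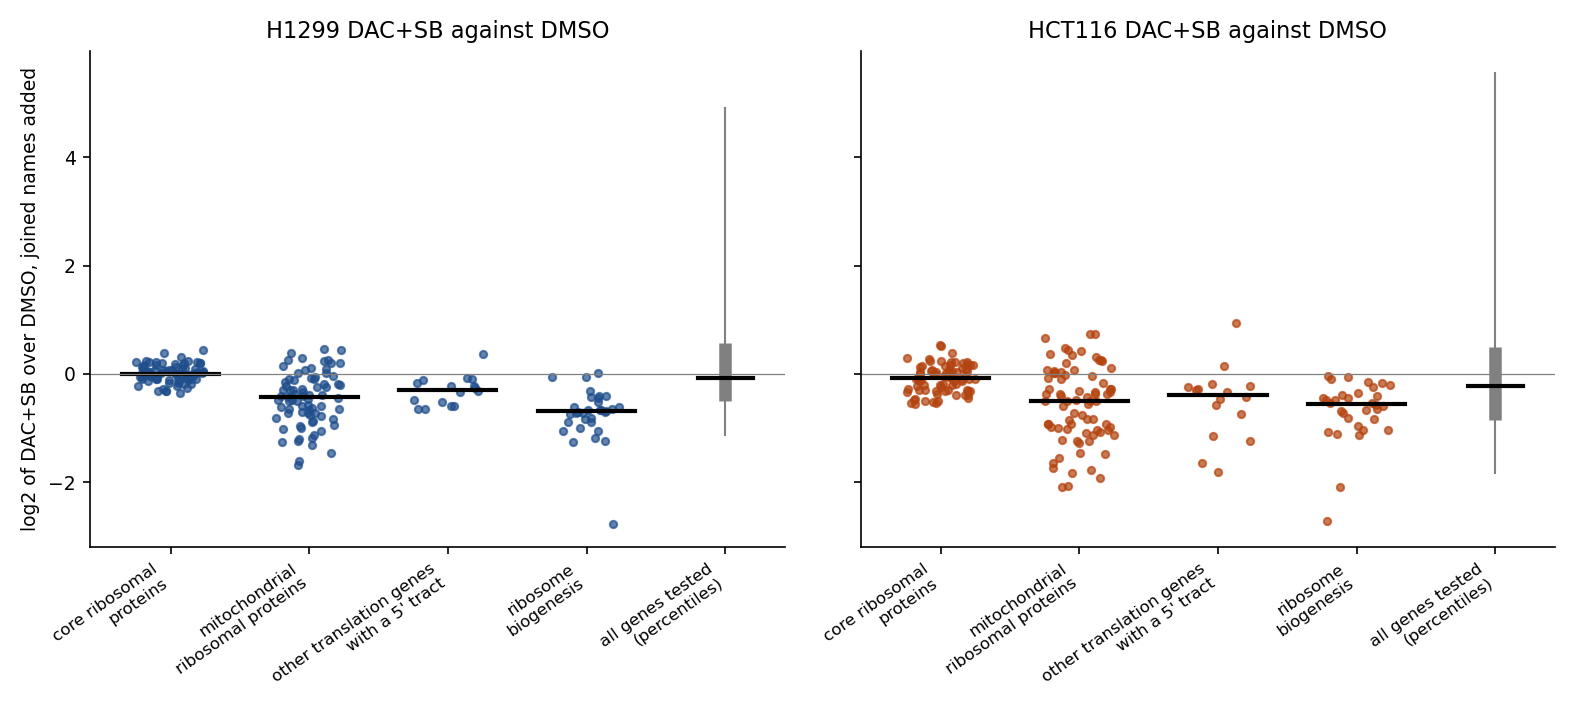
Log2 ratio of DAC+SB over DMSO in H1299 (left) and HCT116 (right), joined names added, for core ribosomal proteins and 3 other lists (1 point per gene, black lines at the medians), beside all genes tested (thin bar from the 5th to the 95th percentile, thick bar between the quartiles). Core genes lie in the narrowest band, and the biogenesis list lies almost wholly below 0.

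The balance of core genes was spread more widely between the control lines than between control and treated libraries. With joined names added, control HCT116 over control H1299 gave a median log2 ratio of -0.13 and an SD over genes of 0.50, and 1 core gene was higher and 2 were lower by at least 2-fold (15.1% and 20.3% of 14064 genes were). RPS2 was the higher gene, at 1794 CPM in control H1299 and 5740 CPM in control HCT116, a log2 ratio of 1.68. RPS20, of the small subunit head, had 2233 and 634 CPM respectively, a log2 ratio of -1.82. RPL41, the shortest ribosomal protein, had 10524 and 4617 CPM, a log2 ratio of -1.19. The treated libraries kept this order, with RPS20 at 2104 CPM in treated H1299 and 593 CPM in treated HCT116, RPL41 at 9867 and 3333 CPM, and RPS2 at 2348 and 4408 CPM. RPL7 (-0.99), RPL37 (-0.98) and RPS16 (-0.93) came next among the lower genes, and RPL36 (0.69) was among the higher ones. The paralogue RPL39L was at least 5309-fold lower in control HCT116 than in control H1299, under the condition given for RPL10L. On single names it and RPL18 were the 2 members lower by at least 4-fold (9.92% of genes were), and 0 were higher by that much (8.11% of genes were). RPL39L passed the count filter through control H1299 alone and could be called only lower. At 1.5-fold, 4 core genes were higher and 15 lower (23.8% and 31.2% of genes were). Taking mitochondrially encoded counts out of the totals moved the log2 ratios of this comparison up by 0.13.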

How the data were processed

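The authors deposited counts, in whole numbers per cell, for genes and for transposable elements; per the submitters' processing notes CASAVA, STAR and the build GRCh38 (hg38) were used, with no role or version named. Collapse of counts by molecular identifier, the counting tool, the annotation, the cell filter and the meaning of numbers after feature names were not given in the sources used here. Counts were summed per library, scaled to the sum of gene and transposable element counts (CPM), and compared as log2 ratios where the higher library had 100 counts or more; a library at 0 was set to a floor of 3 counts. Shares carry exact Clopper-Pearson, counts exact Poisson and ratios exact conditional binomial 95% intervals. Only the ratio intervals and the fold calls were run on simulated data. Those were Poisson counts without variation between cells or libraries, the case the intervals assume. All cells were used and no doublet caller was run; instead, results were recomputed without the 5% most highly counted cells. Cells were thinned to 3300 counts for values per cell. Single names were the main setting; joined names added, another total, other cells, scalings, filters and folds were alternatives. Comparisons with genes of at least 10000 counts, the pseudogene sum, and counts of core genes with joined names added and transposable elements out of the total were chosen after seeing the data. Members and lists were chosen with earlier results of these data known. Genes named were taken from those with the 6 highest and 6 lowest ratios of each comparison, the 8 highest levels per library and the 6 largest differences between lines. They were also taken from members mostly under joined names or near 0, paralogues with parents, stalk genes, and the 3 highest and lowest of other lists. Not every gene that meets this rule is named. RPL5, RPL11, RPS6 and other members outside this rule were named after their values were seen, for their role. Gene positions come from GENCODE v29, matched by symbol for 81 members, and start sequences from RefSeq. Python 3.11.15 with numpy 2.4.6, scipy 1.17.1, pandas 2.3.3 and matplotlib 3.10.9 was used. A few genes of the members and lists are not reported here by name.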

Additional observations from a re-analysis of the deposited data

Results flagged for a closer look

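RPL39L had opposite directions in the lines: its log2 ratio of DAC+SB over DMSO was -0.92 in H1299 and at least 9.36 in HCT116, where no RPL39L count was listed in the DMSO library. The bound uses a floor of 3 counts and would not hold if counts of an unlisted numbered feature, listed only from 10 counts on, were missing there. In HCT116, RPL39L passed the count filter through the treated library alone and could be called only higher. With 1 library per group the difference between the lines was not tested.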

How the results depend on the processing

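With 1 library per group no replicate could be left out, and intervals of pooled counts are so narrow that most alternatives leave them. No paired analysis was made. Each line has 1 control and 1 treated library, and the results within a line come from no test. Pairing control and treated libraries across the lines, with line as a block, was not run. For H1299, the log2 ratio of the summed share (0.015 on single names) was 0.028 with joined names added, 0.029 with numbered features listed in both libraries only, 0.057 without transposable element counts in the total, 0.012 without mitochondrial counts, 0.023 without both ribosomal protein and mitochondrial counts, 0.016 without the 5% of cells with most counts, 0.012 without cells above 25% mitochondrial counts and 0.013 as a mean over cells. For HCT116 (-0.034), the values were 0.044 without transposable element counts, where the sign turned, -0.021 and -0.028 without mitochondrial counts and without both, -0.051 and -0.0078 with either set of cells left out, and -0.11 as a mean over cells. Between the DMSO libraries (-0.22), they were -0.21, -0.21, -0.22, -0.090, -0.12, -0.22, -0.19 and -0.21 in the order given for H1299. The median over members was 0.086 in H1299 and 0.17 in HCT116 relative to the median of all genes, and 0.01 in HCT116 without transposable element counts. Taking out mitochondrial counts moved the median of all genes by 0.13 between the DMSO libraries, and by 0.10 with ribosomal protein counts also out. The number of members lower by 2-fold in H1299 went from 1 (7.34% of genes were) to 0 with joined names added or with numbered features listed in both. At 1.5-fold it was 2 higher and 2 lower (24.9% and 21.3% of genes were). From 10 counts on, where the share of all genes was not counted, 2 were higher by 2-fold. In HCT116, 1 was lower at 1.5-fold (35.2% of genes were), and 1 by 2-fold from 10 counts on. Between the DMSO libraries, 4 were higher and 17 lower at 1.5-fold (23.8% and 31.5% of genes were). At 4-fold, 0 were higher and 2 (RPL18 and RPL39L) lower (8.11% and 9.92% of genes were). The RPL18 log2 ratio turned with joined names added, to 0.17 in H1299 and 0.054 between the DMSO libraries, since its feature carries another name in H1299 DMSO than elsewhere. The median share per cell, 24.5%, 24.6%, 21.2% and 20.2% on single names, was 26.2%, 26.6%, 22.9% and 21.7% with joined names added, 27.0%, 27.2%, 25.4% and 24.7% without mitochondrial counts, and 19.7% in HCT116 DAC+SB without thinning. Other causes of these shifts were not tested.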
